A study of Homo sapiens with 27 samples.

Results

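The miR-130, miR-301 and miR-454 family was followed through small RNA sequencing of H1 human embryonic stem cells (hESCs) and of K562, an established line of chronic myelogenous leukemia. The family was taken as 5 mature miRNAs, hsa-miR-130a-3p, hsa-miR-130b-3p, hsa-miR-301a-3p, hsa-miR-301b-3p and hsa-miR-454-3p, matched by name among the 2276 mature miRNAs listed in any of the 9 deposited count tables. The 5 hESC groups were wild type (WT), USB1 mutant, edited to carry a deletion found in poikiloderma with neutropenia, the same mutant with an inducible WT USB1 transgene (iUSB1) at the AAVS1 locus without doxycycline (-Dox) and with it (+Dox), and the mutant with 3 short hairpins against PAPD5 at AAVS1 (shPAPD5). The 4 K562 groups were control, USB1 knockout (KO), control with a hairpin against PARN (shPARN), and USB1 KO with shPARN. Each group held 3 libraries. All hESC groups but WT carry the mutation. The edited hESCs were picked manually after seeding at low density, and the KO lines are single-cell clones. Effects of the edit and of the clone therefore cannot be told apart. No group with a control hairpin is labelled, so each knockdown was compared with groups without any hairpin. In those comparisons, effects of the knockdown and of hairpin expression cannot be told apart.

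A mature miRNA pairs with messenger RNAs mainly through its seed, bases 2 to 8, so miRNAs that share a seed share predicted targets and are counted as a family. The family studied here is encoded by separate loci, and its members are known for repressing components of the TGF-beta and BMP pathways. USB1 and PARN are exonucleases that remove adenosines from RNA 3' ends, and PAPD5 is a polymerase that adds them. An oligo(A) tail can mark a miRNA for decay, so the comparisons ask whether loss of either nuclease, or of the polymerase in mutant cells, changed the level of each member.

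Mature sequences were found for 4 of the 5 members in the RefSeq table of build GRCh38.p14. They are shown because the shared seed defines the family and the remainder tells the members apart. The seed is in capitals.
hsa-miR-130b-3p: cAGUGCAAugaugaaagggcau
hsa-miR-301a-3p: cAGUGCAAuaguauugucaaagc
hsa-miR-301b-3p: cAGUGCAAugauauugucaaagc
hsa-miR-454-3p: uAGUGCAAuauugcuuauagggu
The same seed was held by 6 of the 2545 mature sequences of that table, these 4 with hsa-miR-3666 and hsa-miR-4295, and neither of the last 2 was listed in any count table. Among the 4 members, miR-301a-3p and miR-301b-3p were the closest pair. They matched at 21 of 23 positions and differed by A10G and G11A, where positions are counted from 1 at the 5' end and the base of miR-301a-3p comes first. Reads were aligned with mismatches barred in the aligner's seed. How well reads were split between these 2 members was not tested. By contrast, miR-301b-3p and miR-130b-3p shared their first 12 bases and matched at 13 of 22 positions. miR-130a-3p, for which no sequence was found, was not compared, so its likeness to the others is not given. None of the 4 sequences ended in A: the last base was U in miR-130b-3p and miR-454-3p and C in miR-301a-3p and miR-301b-3p.

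The 5 hairpins lie at 3 places in the genome (GENCODE annotation, GRCh38). MIR130A (chr11:57641198-57641286, plus strand) lies in an intron of the long noncoding RNA MIR130AHG. MIR454 (chr17:59137758-59137872) and MIR301A (chr17:59151136-59151221) are on the minus strand, 13263 bases apart, and neither overlaps an exon of the 10 transcripts of SKA2 that span them. MIR301B (chr22:21652981-21653058) and MIR130B (chr22:21653304-21653385) are on the plus strand with 245 bases between them, inside the noncoding gene ENSG00000207751. MIR130B overlaps an exon in 2 of the 3 transcripts that span it and MIR301B in 0.

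Depth per library, as summed miRNA counts, was 12258450 to 35734485 for hESCs. For K562 it was 1530929 to 13183152, and KO library 3 was the shallowest. Levels are given in CPM, counts relative to library size, after TMM scaling within a line, and changes are log2 fold changes with the standard error (SE) of the edgeR quasi-likelihood fit. Calls were made at 0.05 on p-values adjusted by Benjamini-Hochberg over every miRNA tested in a comparison. The summed level of 8 pluripotency miRNAs was 180677 to 380890 CPM in hESCs, where 7 blood miRNAs summed to 92.8 to 286 CPM, against 7309 to 10422 CPM in K562. The pluripotency sum in K562 was 0.485 to 741 CPM. The columns of the K562 control bear the titles of the hESC WT samples, so no sample number was taken from them. They were assigned to K562 control by the sample descriptions, and the libraries are named A, B and C. Libraries A and B held 4323 and 3005 counts of the stem cell miRNA miR-302b-3p, and library C held 1. In the other 10 K562 libraries, C included, counts of the 4 miR-302 3p miRNAs were 0 to 6 wherever they were listed. Library 1 of KO shPARN held 118749 counts of miR-143-3p, and the other 11 K562 libraries were lower. Relative to the library total, KO library 3 came next, at 5575 CPM, against 711 and 1040 CPM in KO libraries 1 and 2. The summed level of 6 fibroblast miRNAs, miR-143-3p among them, was 515 to 14121 CPM in K562 and 187 to 670 CPM in hESCs. The part of these features in the results was not tested. For the members save miR-130a-3p, and for miR-19a-3p and miR-152-3p, results that use the K562 control are given with and without libraries A and B where the call differs. Calls of other named miRNAs are not given without them.

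In hESCs the family was made up mainly of miR-454-3p and miR-130a-3p. miR-454-3p took 40.2 to 58.3% of the family's counts over the 15 libraries, with a median of 49.9%. miR-130a-3p took 26.0 to 36.4% and miR-130b-3p 12.8 to 20.7%. miR-301a-3p, at 1.05 to 2.74%, and miR-301b-3p, at 0.524 to 2.40%, were the scarcest, and their ranges overlapped. The mature forms are of nearly equal length, but ligation and amplification can favor some sequences, so an order between members holds for counts. Together the 5 members made up 0.0297 to 0.0745% of all miRNA counts of an hESC library.

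**Figure D1:**
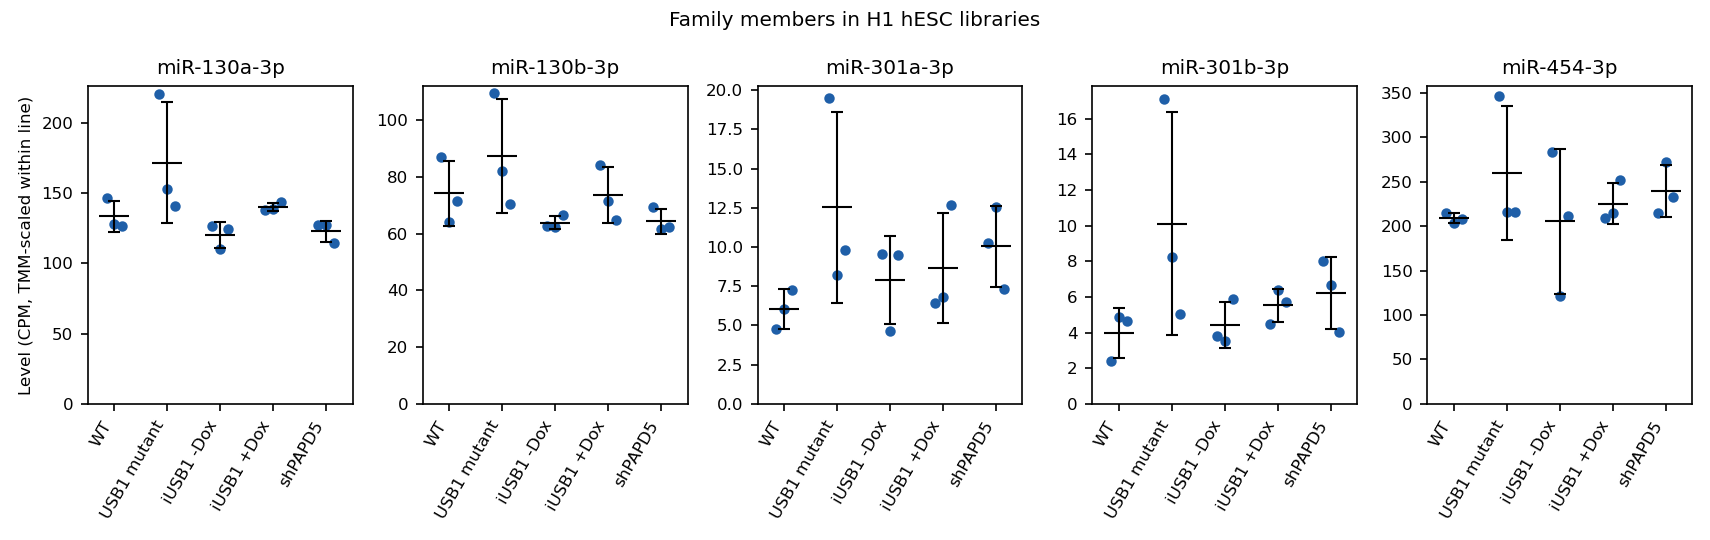
Levels of the 5 members in H1 hESCs. Points are libraries in CPM, 1 panel per member with its own linear axis from 0, and bars are mean and SD of 3 libraries. Library 1 of the USB1 mutant is the highest of all 15 libraries for each member.

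Loss of USB1 function in hESCs was followed by no called change of a member. Comparing USB1 mutant with WT, edgeR called 0 of 5 members, beside 7.41% of all 998 miRNAs tested. All 5 point estimates were above 0. An unadjusted p under 0.05 was found for 2 members, and for 237 of the 998 miRNAs. The median of the 5 log2 changes was 0.36 against 0.04 over all miRNAs. The summed level of the 8 pluripotency miRNAs was also higher in the mutant libraries, at 253531 to 380890 CPM against 180677 to 196046 CPM in WT, and its part in the result was not tested. miR-301b-3p was measured at 2.39, 4.87 and 4.67 CPM in WT libraries 1 to 3 and at 17.1, 8.22 and 5.02 CPM in mutant libraries 1 to 3. The 3 mutant libraries lay above the 3 WT libraries, by a narrow margin for library 3 and a wide one for library 1. The log2 change was 1.35 (SE 0.41, adjusted p = 0.0509, edgeR), just outside the threshold. It was called by DESeq2 (adjusted p = 0.0228), with no filter on low counts (0.0448) and without mutant library 3 (log2 change 1.65, adjusted p = 0.0144), whereas without mutant library 1 it was 0.74 (adjusted p = 0.306).

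miR-301a-3p, encoded on another chromosome, was measured at 4.77, 6.07 and 7.29 CPM in WT and at 19.5, 8.22 and 9.82 CPM in the mutant. The groups did not overlap, and the log2 change was 1.05 (SE 0.37, adjusted p = 0.0955, edgeR). Without mutant library 1 it was 0.57 (adjusted p = 0.417). The 3 more abundant members had smaller estimates. miR-130a-3p was at 146, 128 and 126 CPM in WT and at 221, 153 and 141 CPM in the mutant, with a log2 difference of 0.36 (SE 0.17, adjusted p = 0.214, edgeR). The groups overlapped, since WT library 1 lay above mutant library 3. For miR-454-3p, WT held 215, 204 and 209 CPM and the mutant 347, 216 and 216 CPM. Mutant library 1 stood apart while libraries 2 and 3 lay just above the WT range, and the log2 change was 0.31 (SE 0.25, adjusted p = 0.477). miR-130b-3p, at 86.9, 64.2 and 71.5 CPM in WT and 110, 82.0 and 70.5 CPM in the mutant, overlapped, with a log2 difference of 0.24 (SE 0.18, adjusted p = 0.464). Without mutant library 1 these 3 members were at 0.14, 0.04 and 0.04, in the order given.

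The uninduced iUSB1 line carries the same mutation, and its members stood close to WT. For iUSB1 -Dox against WT, edgeR called 0 of 5 members, beside 4.31% of all miRNAs, with log2 changes of -0.22 to 0.40 and 0 members at an unadjusted p under 0.05. miR-301b-3p was at 3.83, 3.50 and 5.91 CPM in iUSB1 -Dox, which overlapped WT (log2 change 0.16, SE 0.41). Against the USB1 mutant directly, all 5 members had lower point estimates in iUSB1 -Dox. The largest was miR-301b-3p, at -1.19 (SE 0.40), followed by miR-301a-3p at -0.65 (SE 0.37), miR-130a-3p at -0.51 (SE 0.17), miR-130b-3p at -0.45 (SE 0.18) and miR-454-3p at -0.34 (SE 0.25). In that comparison edgeR called 0 of 5 members and 0% of all miRNAs, with 3 members and 89 miRNAs at an unadjusted p under 0.05, and DESeq2 called 2 miRNAs. The comparison with the mutant and that of the mutant with WT share the mutant libraries, library 1 among them. Without that library the 5 estimates, in the same order, were -0.57, -0.17, -0.28, -0.24 and -0.07, each more than 1.5 times closer to 0.

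Induction of USB1 gave no called member. For iUSB1 +Dox against -Dox, edgeR called 0 of 5 members and 0% of all miRNAs (45 at an unadjusted p under 0.05, 0 of them members), and DESeq2 called 1 miRNA, which was no member. miR-130a-3p was at 140 ± 2.96 CPM (SD, n = 3) with Dox, and at 126, 110 and 124 CPM without it. These groups did not overlap, and the log2 change was 0.22 (SE 0.17, adjusted p = 0.994, edgeR). miR-454-3p spread more widely without Dox, at 283, 121 and 212 CPM, than with it, at 210, 215 and 252 CPM. The largest estimate was 0.31 (SE 0.40) for miR-301b-3p. Against WT, iUSB1 +Dox gave 0 of 5 members called, beside 8.22% of all miRNAs, with log2 changes of -0.01 to 0.51 and 0 members at an unadjusted p under 0.05.

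PAPD5 knockdown in the mutant likewise gave no called member. Against the USB1 mutant, edgeR called 0 of 5 members and 0% of all miRNAs (116 at an unadjusted p under 0.05, 2 of them members), and DESeq2 called 8 miRNAs, 0 of them members. All 5 point estimates were lower in shPAPD5, from -0.11 for miR-454-3p (SE 0.25) to -0.69 for miR-301b-3p (SE 0.40). These estimates leaned on mutant library 1. Without it, miR-301a-3p and miR-454-3p turned to 0.18 and 0.17, and miR-301b-3p, miR-130a-3p and miR-130b-3p were at -0.07, -0.24 and -0.22. On library totals miR-454-3p was at 0.01. miR-130a-3p was at 127, 127 and 114 CPM in shPAPD5, below all 3 mutant libraries, a log2 change of -0.48 (SE 0.17, adjusted p = 0.319, edgeR). Against WT, 0 of 5 members and 0% of all miRNAs were called (130 at an unadjusted p under 0.05, 0 of them members), while DESeq2 called 21 miRNAs, again no member. miR-301a-3p had the largest estimate there, at 10.2, 12.5 and 7.34 CPM in shPAPD5 and a log2 change of 0.74 (SE 0.37, adjusted p = 0.430, edgeR).

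K562 cells had a different family make-up. miR-130b-3p took 59.6 to 78.1% of the family's counts over the 12 libraries and miR-454-3p 18.5 to 34.7%, and these ranges did not overlap. miR-301b-3p took 1.72 to 4.53% and miR-301a-3p 0.745 to 3.32%. miR-130a-3p, with 1508 to 5088 counts in every hESC library, was nearly missing. Its counts were 9, 10 and 2 in control libraries A, B and C, 6, 1 and 0 in the KO, and 4, 4 and 3 in control shPARN, and it was not listed for KO shPARN, whose first library therefore held 0. The 0 in KO library 3 allows up to 1.96 CPM of the library total, for counting error only. In the 2 control libraries with miR-302b-3p, there were 480 and 300.5 counts of miR-302b-3p for each count of miR-130a-3p, against 687 to 936 in WT hESCs and 0.5 in library C. The part of stem cell RNA in the counts of libraries A and B was not tested. In the 6 other libraries that list it at 1 count or more, miR-302b-3p was at 1 count or not listed, and miR-130a-3p held 1 to 6 counts.

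**Figure D2:**
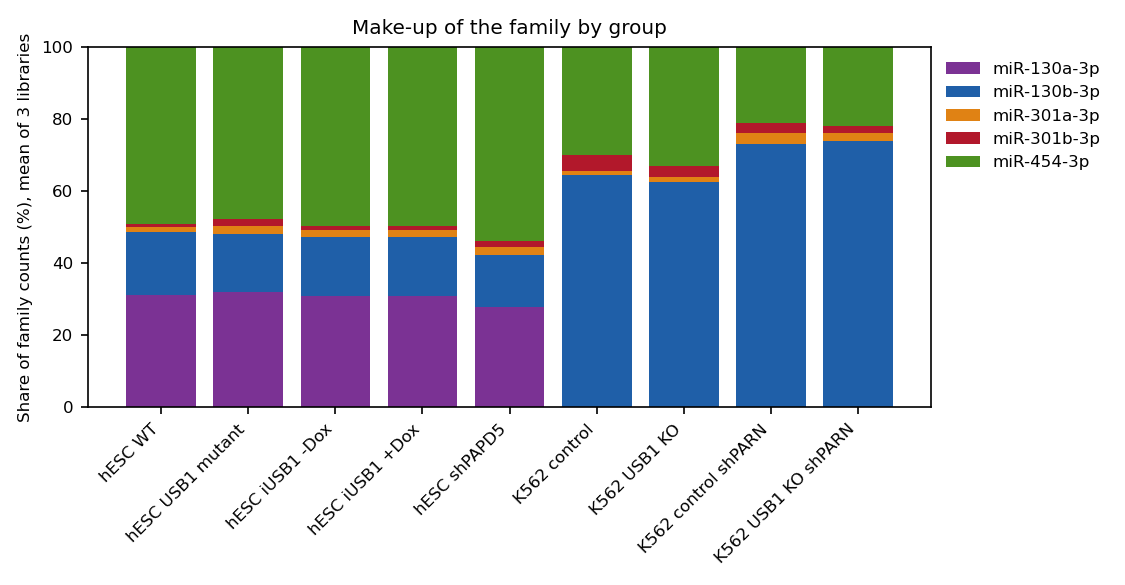
Make-up of the family by group. Stacked bars give each member's share of the family's counts in percent, as the mean of 3 libraries; miR-130a-3p, not listed for USB1 KO shPARN, is drawn at 0 there. miR-454-3p and miR-130a-3p fill most of each hESC bar and miR-130b-3p most of each K562 bar.

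USB1 knockout by itself gave no called member in K562. Against control, edgeR called 0 of the 4 members tested, beside 5.11% of all 881 miRNAs, with 0 members at an unadjusted p under 0.05, and DESeq2 called 0 members. miR-130b-3p was at 421, 485 and 450 CPM in control and 507, 496 and 526 CPM in the KO, so the groups did not overlap, yet the log2 change was 0.17 (SE 0.15, adjusted p = 0.577, edgeR). miR-454-3p was at 193, 185 and 262 CPM in control and 264, 272 and 271 CPM in the KO. The KO libraries lay close together and above control, and the log2 change was 0.33 (SE 0.19, adjusted p = 0.368). With control library C alone it was 0.02 (adjusted p = 0.990), and without library C it was 0.53 (adjusted p = 0.170). miR-301b-3p was at 29.7, 30.3 and 32.8 CPM in control and 29.2, 26.7 and 17.5 CPM in the KO, the last from 36 counts in the shallow library 3. The KO libraries lay below control, though the difference of -0.32 on the log2 scale (SE 0.22, adjusted p = 0.457) did not pass the test. miR-301a-3p overlapped between the groups (0.45, SE 0.32, adjusted p = 0.468).

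With PARN knockdown in the KO, miR-301b-3p and miR-454-3p fell. Of 4 members tested, 2 were called, beside 14.8% of all miRNAs, and both fell, beside 5.68% called lower. miR-301b-3p went from 29.2, 26.7 and 17.5 CPM to 7.62, 10.7 and 11.1 CPM, and its highest level with shPARN was below its lowest level without. The log2 change was -1.33 (SE 0.23, adjusted p = 0.00335, edgeR). miR-454-3p went from 264, 272 and 271 CPM to 108, 133 and 103 CPM, a log2 change of -1.23 (SE 0.19, adjusted p = 0.00199, edgeR). The groups were again fully apart. Both stayed called under all 14 alternatives run, with log2 changes of -1.55 to -1.20 for miR-301b-3p and -1.51 to -1.19 for miR-454-3p.

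The other 2 members did not pass the test. miR-130b-3p was at 316, 417 and 435 CPM with shPARN, below the 3 KO libraries, with a log2 change of -0.39 (SE 0.15, adjusted p = 0.111, edgeR). It was called with library totals as the only scaling (-0.65, adjusted p = 0.0371) and among miRNAs of at least 10 CPM in 3 libraries (-0.45, adjusted p = 0.0404). miR-301a-3p was at 14.2, 10.6 and 9.70 CPM without and 12.7, 15.6 and 8.24 CPM with shPARN (0.07, SE 0.31, adjusted p = 0.907). The median log2 change of all miRNAs in this comparison was 0.11, and -0.14 on library totals, where the calls split into 31 higher and 77 lower in place of 80 and 50. Without library 1 of KO shPARN, which held the highest miR-143-3p count, miR-301b-3p was at -1.22 (adjusted p = 0.00928) and miR-454-3p at -1.24 (adjusted p = 0.00477).

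**Figure D3:**
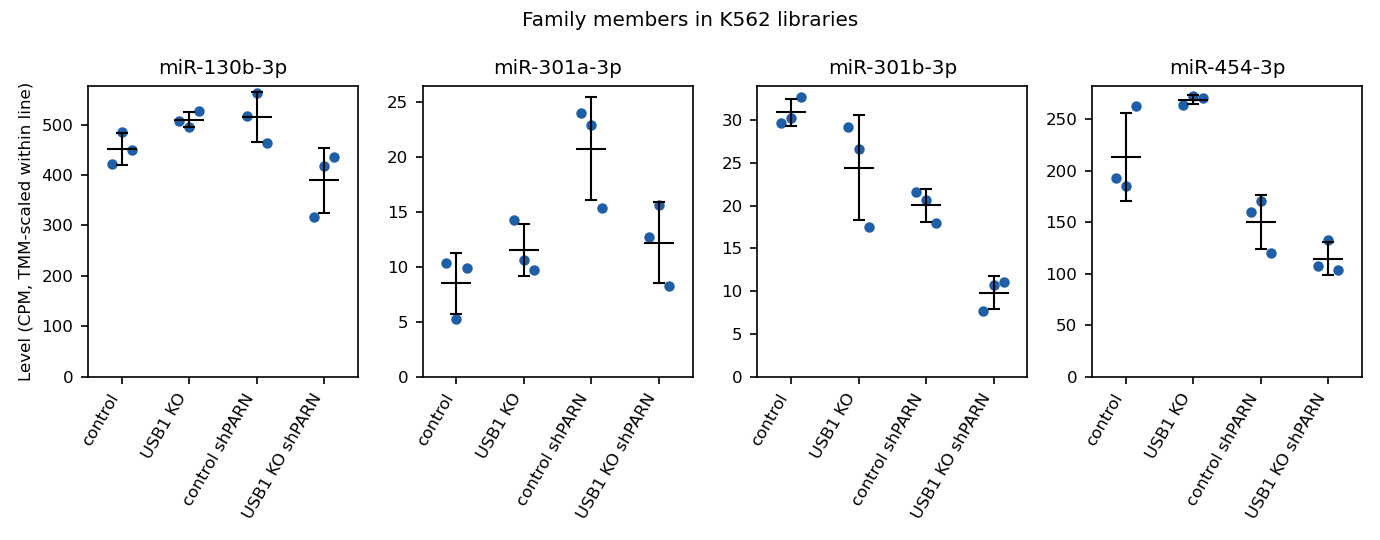
Levels of 4 members in K562. Points are libraries in CPM, each panel has its own linear axis from 0, and bars are mean and SD of 3 libraries. miR-301b-3p and miR-454-3p are lowest in USB1 KO shPARN, and miR-301a-3p is highest in control shPARN.

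PARN knockdown in control cells called no member. edgeR called 0 of 4, beside 1.48% of all miRNAs, but 3 members had an unadjusted p under 0.05, out of 118 miRNAs. miR-301a-3p was at 10.3, 5.26 and 9.84 CPM in control libraries A, B and C and at 24.0, 22.9 and 15.3 CPM with shPARN. The groups were apart, with a log2 change of 1.28 (SE 0.31, adjusted p = 0.0628, edgeR). It was called by DESeq2 (adjusted p = 0.00650), in a fit of these 2 groups only (adjusted p = 0.0353), among miRNAs of at least 10 CPM in 3 libraries (adjusted p = 0.0389) and without control shPARN library 3 (1.45, adjusted p = 0.0356). With control library C alone it was 1.08 (SE 0.42, adjusted p = 0.759), where 0 miRNAs in all were called. miR-301b-3p, at 21.6, 20.6 and 17.9 CPM with shPARN, lay below all control libraries (-0.62, SE 0.22, adjusted p = 0.218). miR-454-3p, at 160, 170 and 120 CPM, did too (-0.51, SE 0.19, adjusted p = 0.242). On library totals both were called, at -0.88 (adjusted p = 0.0431) and -0.76 (adjusted p = 0.0487), while the median of all miRNAs moved from -0.03 to -0.29. miR-130b-3p, at 517, 563 and 465 CPM, overlapped control (0.19, SE 0.15).

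The KO was also compared with control under shPARN. Of 4 members 1 was called, beside 9.19% of all miRNAs, and it fell, beside 4.2% called lower. This was miR-301b-3p, whose 7.62, 10.7 and 11.1 CPM in KO shPARN lay below the 21.6, 20.6 and 17.9 CPM in control shPARN. The log2 change was -1.03 (SE 0.23, adjusted p = 0.0136, edgeR), and it was called under all 14 alternatives, at -1.15 to -0.91. The other 3 members also had lower point estimates, -0.77 for miR-301a-3p (SE 0.31, adjusted p = 0.133), -0.40 for miR-130b-3p (SE 0.15, adjusted p = 0.117) and -0.39 for miR-454-3p (SE 0.19, adjusted p = 0.197). miR-301a-3p overlapped between the groups by a single library, KO shPARN library 2 at 15.6 CPM against control shPARN library 3 at 15.3 CPM.

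Whether PARN knockdown acted differently in KO and control cells was tested as an interaction. edgeR called 0 of 4 members, beside 1.82% of all miRNAs, and DESeq2 called 0 members as well. All 4 members had an unadjusted p under 0.05, out of 159 miRNAs, and all 4 estimates were below 0. They were -1.22 for miR-301a-3p (SE 0.44, adjusted p = 0.181), -0.73 for miR-454-3p (SE 0.26, adjusted p = 0.181), -0.71 for miR-301b-3p (SE 0.32, adjusted p = 0.25) and -0.58 for miR-130b-3p (SE 0.22, adjusted p = 0.198). Under none of the 18 alternatives was a member called, and the lowest adjusted p was 0.0761. The median interaction over all miRNAs was 0.10. The fall of miR-301b-3p and miR-454-3p in KO cells is therefore not shown to differ from their change in control cells.

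**Figure D4:**
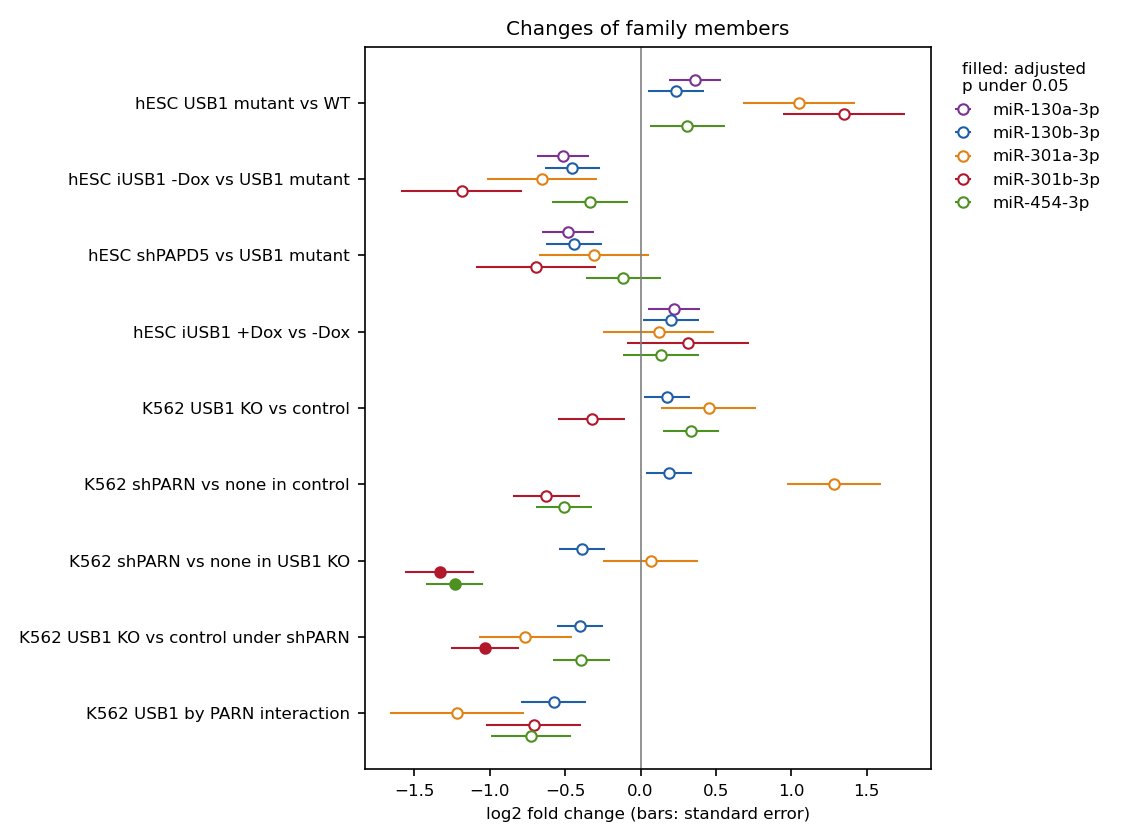
Log2 fold changes of the members in 9 comparisons. Points are edgeR estimates, bars are 1 SE, and filled points passed an adjusted p of 0.05. The filled points are miR-301b-3p and miR-454-3p with shPARN in USB1 KO, and miR-301b-3p in KO against control under shPARN, all below 0.

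Each hairpin can give a second mature miRNA from its 5p arm, so the counts of both arms were compared within a library. The 3p arm is the family member, and this share does not depend on library scaling. In hESCs the 3p arm held 94.6 to 99.0% of the counts of miR-454, 58.2 to 71.7% of miR-130a, 36.4 to 82.3% of miR-301b, 8.91 to 33.6% of miR-301a and 9.91 to 24.6% of miR-130b. The 5p arm was thus the more abundant one for miR-301a and miR-130b in every hESC library. Library 1 of the USB1 mutant had the highest 3p share of all 15 for miR-454, miR-301b, miR-301a and miR-130b.

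In K562 the 3p share of miR-301b moved with PARN knockdown. It was 60.9, 54.8 and 59.5% in control and 57.4, 57.9 and 61.0% in the KO, and 30.6, 44.5 and 39.1% in control shPARN and 26.5, 24.9 and 32.3% in KO shPARN. All 6 libraries with shPARN lay below all 6 without it. No test was run on this share, and how many hairpins outside the family separate in this way was not counted. The 5p arm itself had point estimates of 0.63 (SE 0.29, adjusted p = 0.373, edgeR) in control cells and 0.53 (SE 0.30, adjusted p = 0.273, edgeR) in KO cells, neither called. For miR-454 the 3p share was 96.4 to 98.4% without shPARN and 93.2 to 95.6% with it, again without overlap. The 3p share of miR-301a was 30.5 to 37.1% in control shPARN against 13.6 to 26.4% in control, and 21.4 to 26.3% in KO shPARN against 25.6 to 38.5% in the KO. That of miR-130b was 17.8 to 24.2% in control shPARN and 18.9 to 20.6% in control, which overlapped. In KO shPARN it was 19.4 to 24.5%, below the 25.3 to 34.3% of the KO. Of the 5p arms, 0 of 5 were called by edgeR in any hESC comparison and 0 of 4 in any K562 comparison, with miR-130a-5p not tested there. The shares of all miRNAs called are those given above for each comparison. Between K562 control and WT, 4 of 4 were called, beside 61.2% of all miRNAs. miR-130b-5p (0.65) and miR-301b-5p (1.40) were higher in K562, and miR-301a-5p (-1.89) and miR-454-5p (-1.09) lower. These directions were computed with TMM scaling only, and the calls were not checked without control libraries A and B.

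**Figure D5:**
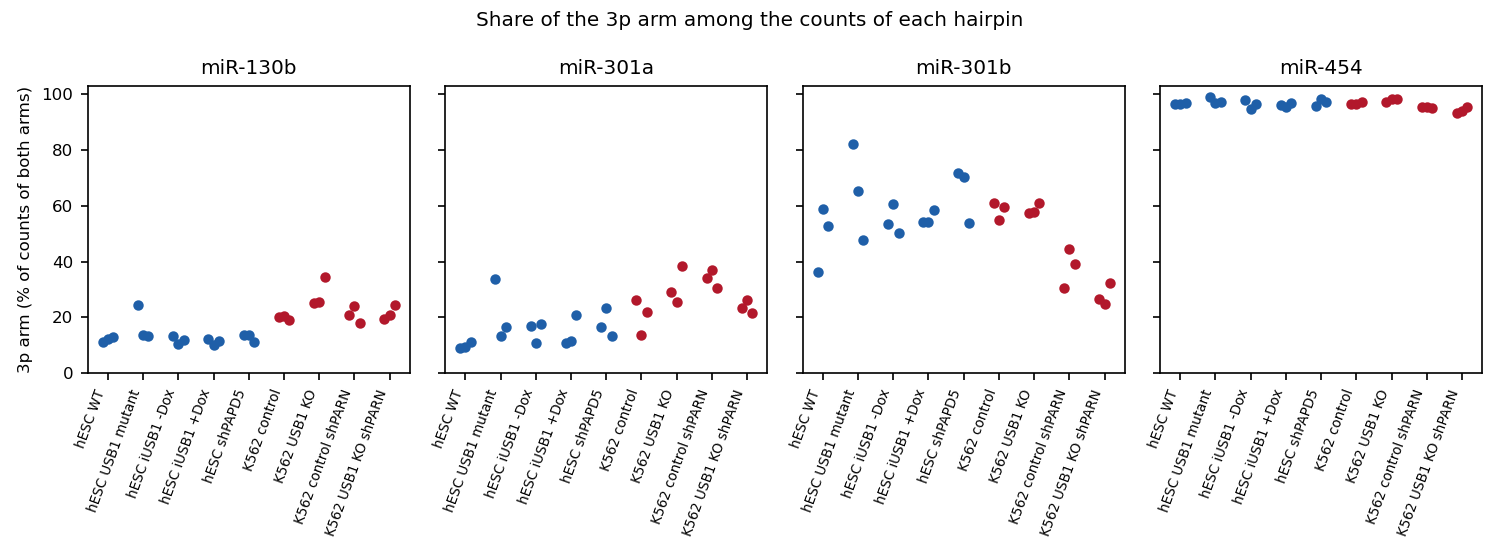
Share of the 3p arm among the counts of both arms of 4 hairpins. The vertical axis is percent, points are libraries, blue for hESCs and red for K562. For miR-301b the 6 K562 libraries with shPARN lie at 24.9 to 44.5%, below the 6 without it at 54.8 to 61.0%.

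The lines were compared through K562 control and hESC WT, in 1 fit of all 27 libraries with levels scaled across both. Culture differs with the line, and the preparation of the libraries may differ too, which the labels do not say. Neither can be told apart from the line. miR-130b-3p was at 277, 308 and 294 CPM in K562 control libraries A, B and C and at 119, 89.5 and 99.8 CPM in WT. The log2 difference, K562 control over WT, was 1.51 (SE 0.19, adjusted p = 1.08e-07, edgeR). miR-301b-3p, its neighbor on chromosome 22, was at 19.5, 19.2 and 21.4 CPM against 3.28, 6.79 and 6.51 CPM, a log2 difference of 1.86 (SE 0.37, adjusted p = 0.000123, edgeR). Both were higher under every alternative run, with the largest differences, 2.71 and 3.08, on library totals. Of the members encoded in SKA2, miR-454-3p was at 127, 117 and 171 CPM in K562 control and 296, 284 and 291 CPM in WT, a log2 difference of -1.07 (SE 0.24, adjusted p = 0.000488, edgeR) that was 0.12 (adjusted p = 0.686) on library totals and -0.73 (adjusted p = 0.101) with control library C alone. miR-301a-3p gave -0.59 (SE 0.38, adjusted p = 0.178), and 0.60 (adjusted p = 0.154) on library totals. Of the 4 members tested, 3 were called, beside 61.2% of the 871 miRNAs tested. The 2 higher members stand beside 29.7% called higher and the 1 lower member beside 31.5% called lower. Library totals moved the median of all miRNAs from -0.00465 to 1.19 and the calls from 259 higher and 274 lower to 481 higher among 624, so the direction for the SKA2 members depends on scaling, whereas the difference between miR-130b-3p and miR-454-3p within a library does not.

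miR-130a-3p could be tested between the lines only in a fit of the 6 libraries of K562 control and WT. It gave a log2 difference of -8.51 (SE 0.54, adjusted p = 5.3e-06, edgeR), from 9, 10 and 2 counts against 2694, 2021 and 1732. This fit was not repeated without control libraries A and B.

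The effect of USB1 loss was also compared between the lines, as KO against control minus mutant against WT. edgeR called 0 of 4 members, beside 3.9% of all miRNAs, and 1 member was among the 124 miRNAs at an unadjusted p under 0.05. This was miR-301b-3p, at -1.65 (SE 0.51, adjusted p = 0.0807). It was called by DESeq2 (-1.60, adjusted p = 0.0329), among miRNAs of at least 10 CPM in 3 libraries (-1.74, adjusted p = 0.0439) and without mutant library 3 (-2.02, adjusted p = 0.0130). Without mutant library 1 it was -1.01 (adjusted p = 0.296), and with control library C alone -1.79 (adjusted p = 0.191), not called in either. The values for miR-301a-3p, miR-130b-3p and miR-454-3p were -0.58 (SE 0.54), -0.05 (SE 0.26) and 0.04 (SE 0.34).

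A set of 5 miRNAs carries most of the family seed at a shifted position: miR-19a-3p, miR-19b-3p, miR-148a-3p, miR-148b-3p and miR-152-3p. The 2 that were called within a line are shown with their own bases 2 to 8 in capitals.
hsa-miR-19a-3p: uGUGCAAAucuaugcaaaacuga
hsa-miR-152-3p: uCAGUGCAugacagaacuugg
miR-19a-3p holds 6 bases of the family seed at positions 2 to 7 and miR-152-3p 6 bases at positions 3 to 8. In the USB1 mutant against WT, 1 of 5 was called, beside 7.41% of all miRNAs: miR-19a-3p, a member of the miR-17-92 cluster, was at 42.1 ± 10.1 CPM (SD, n = 3) in WT and 110 ± 56.4 CPM in the mutant (log2 change 1.39, SE 0.35, adjusted p = 0.0231, edgeR). It was called in 8 of 13 alternatives, and without mutant library 1 it was 0.88 (adjusted p = 0.119). With shPARN in K562 control, 1 of 5 was called, beside 1.48%, again miR-19a-3p (1.55, SE 0.32, adjusted p = 0.0298, edgeR), in 7 of 13 alternatives but not with control library C alone (1.10, adjusted p = 0.683). These are the comparisons in which miR-301a-3p had its largest positive estimates, 1.05 and 1.28, without being called. miR-19b-3p was at 0.97 and 0.26 in them, also not called, and miR-148a-3p, miR-148b-3p and miR-152-3p had negative estimates in both. In KO against control, 1 of 5 was called, beside 5.11%: miR-152-3p fell from 116 ± 4.05 to 64.4 ± 2.34 CPM (-0.85, SE 0.23, adjusted p = 0.0469, edgeR). Its change was -0.88 to -0.78 over 13 alternatives but was called in 2, and the adjusted p was 0.423 with control library C alone. With shPARN in the KO, where miR-301b-3p and miR-454-3p fell, 0 of 5 were called by edgeR, beside 14.8%, and their log2 changes were -0.53 to 0.56.

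The miRNAs most like each member were found as those with the smallest root mean square difference of centered log2 CPM over the 9 group means, among 870 others, as a description. For miR-130b-3p they were miR-24-3p, miR-548s and miR-590-3p, at 0.13, 0.14 and 0.16, where the median over all others was 0.97. For miR-454-3p they were miR-342-3p, miR-195-5p and miR-1976, at 0.20 to 0.21 (median 1.07). The differences were larger for miR-301a-3p, nearest to miR-7110-3p, miR-6866-5p and miR-93-5p at 0.27 to 0.30 (median 0.84), and for miR-301b-3p, nearest to miR-1277-3p, miR-324-5p and miR-362-5p at 0.29 to 0.37 (median 0.90). No member of the family was among these.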

How the data were processed

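Per the labels and the study's methods, small RNA libraries (Lexogen kit) were sequenced on a NovaSeq, trimmed with cutadapt 2.5 and aligned to miRBase 22 with Bowtie2 2.2.9, and SAMtools 1.3.1 served for the alignments. The authors deposited raw, not normalized, read counts for mature miRNAs in 27 libraries. A table lists only miRNAs with a count in its first column; 0 columns were left out. Adaptor entries were removed. Here edgeR 4.0.16 (R 4.3.3) fitted quasi-likelihood models with TMM scaling, filterByExpr (minimum count 10) and robust dispersion to all groups of a line (998 miRNAs in hESCs, 881 in K562) and to both lines (871, holding as little as 38.6% of a library's counts). DESeq2 1.42.0, other scalings, filters and left-out libraries were alternatives, and the code was tested on simulated data. The study describes its miRNA sequencing of WT and mutant hESCs, and of WT and KO K562, as 3 biological replicates. Whether libraries came from separate cultures is not said in the labels, so p-values measure the spread between libraries only. The members, the companion lists and the rule for the miRNAs named (the members, the lists, and the 3 most alike) were chosen with earlier results of these data known. Tail lengths and the RNA of USB1, PARN and PAPD5 were not analysed here.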

Additional observations from a re-analysis of the deposited data

How the results depend on the processing

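The number of members called stayed within 1.5 times the reported number in 184 of 195 recomputations over the 14 comparisons. Where the reported number was 0, this means that it stayed 0. Some changed calls fall within that range. With shPARN in the KO, miR-130b-3p was also called on library totals and with the CPM filter. Between K562 control and WT, miR-454-3p was not called on library totals, and miR-130a-3p was called in the fit of only these groups. In the USB1 mutant against WT it went from 0 to 1 with no filter and with DESeq2, and ranged from 0 to 1 as each library was left out (1 without mutant library 3). With shPARN in K562 control it went from 0 to 2 on library totals, to 1 with the CPM filter, with DESeq2 and with only the groups compared, and ranged from 0 to 1 with a library left out (1 without control shPARN library 3). For the USB1 loss effect between lines it went from 0 to 1 with the CPM filter and DESeq2, and from 0 to 1 with a library left out (1 without mutant library 3). The log2 difference of miR-454-3p between K562 control and WT turned to 0.12 on library totals. The cause was not tested.

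The total number of miRNAs called varied more, from 0 to 90 for the mutant against WT (74 reported, 0 with only these groups), 8 to 59 for iUSB1 -Dox against WT (43), 25 to 115 for iUSB1 +Dox against WT (82), 0 to 21 for shPAPD5 against WT (0), 0 to 3 for +Dox against -Dox (0), 0 to 8 for shPAPD5 against the mutant (0), 0 to 2 for -Dox against the mutant (0), 8 to 63 for KO against control (45), 0 to 37 for shPARN in control (13), 38 to 163 for shPARN in the KO (130), 36 to 124 for KO against control under shPARN (81), 0 to 35 for the interaction (16), 392 to 629 for K562 control against WT (533) and 20 to 52 for the difference between lines (34). miR-301b-3p was below the CPM filter in hESCs.

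Libraries that share a replicate number were not taken as pairs, since not every pair had a correlation of deviations over 0.1. A single low pair fails this rule, so it does not show that the libraries were unpaired. The median correlation for like numbers was 0.03 in hESCs (-0.18 to 0.35, against -0.01 for unlike numbers). It was 0.13 in the 9 numbered K562 libraries (-0.04 to 0.34, against -0.02). A replicate block left 0 members called in all 7 hESC comparisons, 2 with shPARN in the KO and 1 for KO against control under shPARN, and moved the count of all calls in these last 2 from 84 to 109 and from 72 to 88 in the 9 numbered libraries; this fit and the one with control library C alone were chosen after seeing the data. No block could be fitted for comparisons with K562 control. Depth limits miR-130a-3p in K562 most, with 0 to 10 counts where listed, then miR-301a-3p and miR-301b-3p, with 44 to 298 counts in hESCs and 20 to 343 in K562.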
